A study of Oryza sativa Indica Group with 8 samples.

Results

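The loci described here are those whose transcripts stood higher in rice leaves after a late salt shock, whether or not the plant had met salt before. They were chosen by their measured values: a locus entered when its lowest value among the 4 late-shock libraries was at least 1.5 times its highest value among the 4 other libraries. A mean of at least 5 CPM over the late-shock libraries was also required. CPM is the read count of a locus per 1000000 reads counted to loci in that library. Of 55986 loci in the tables, 7 met this rule, which is 0.0568% of the 12320 loci that reached the 5 CPM mean. The mirrored rule, for loci lower in every late-shock library, gave 15 loci (0.12% of those that could meet it). Because these values chose the loci, their difference between late-shock and other libraries is given below as a description, with no test.

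All plants were of BRS Ligeirinho, an indica rice genotype labelled as sensitive to salt stress, and leaf tissue was sequenced from 2 libraries in each of 4 groups. Double-shock plants, labelled "Reprodutive and vegetative", met saline shock at the V4 vegetative stage and again at the R0-R1 reproductive stage. Reproductive-shock plants, labelled "Reprodutive", met the late shock only, and vegetative-shock plants, labelled "Vegetative", the early shock only. Control plants received water and nutrient solution without salt. Every plant was started in a growth chamber and then grown in washed sand in a greenhouse. The labels give no salt dose, no shock duration and no sampling day, so an effect of the late shock and one of sampling time cannot be told apart. They also do not say that replicate libraries are from different plants, and p-values then reflect only library-to-library spread, which may be technical. In whole leaves, fewer cells of a type and less RNA per cell cannot be told apart either.

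Salt reaches a leaf first as a shortage of water and later as a build-up of sodium and chloride. Rice answers with abscisic acid signalling, adjustment of ion transport and osmolytes, and slower growth. Plants that meet the same stress again can respond differently from plants that meet it once, which is called stress memory. The files give identifiers of the LOC_Os form only, and 0 of the 55986 identifiers were found in the reference gene table, so no locus is given a name, a sequence or a role here, and tissue markers could not be checked.

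Libraries held 10464740 to 11727657 counted reads, and 3 reads, the limit that a count of 0 allows, came to 0.256 to 0.287 CPM for counting error alone. Reads aligned to more than 1 place made up 13.6% of the reads listed in double-shock replicate 1, 13.8% in reproductive-shock replicate 2 and 13.5% in control replicate 1. In the other 5 libraries this share was 9.32% to 9.99%. The replicate pairs differed by more than sampling noise, with a chi-square per degree of freedom of 12.4 to 14.4.

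The label of the set describes 6 of the 7 loci, in which every late-shock library held reads and, as the rule required, stood above every other library. The mean of the 4 late-shock libraries was 1.99 to 30.7 times the mean of the other 4, with a median of 3.22. The remaining locus, LOC_Os01g43740 on chromosome 1, met the rule because 0 CPM in 1 late-shock library is not below 1.5 times 0. It had 216 and 4 reads in the double-shock libraries and 98 and 0 in the reproductive-shock libraries, against 0 in each vegetative-shock and control library. High and near-absent libraries occurred within each late-shock group, so the label is not borne out and the locus is left out of the values for the set from here on.

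**Figure D1:**
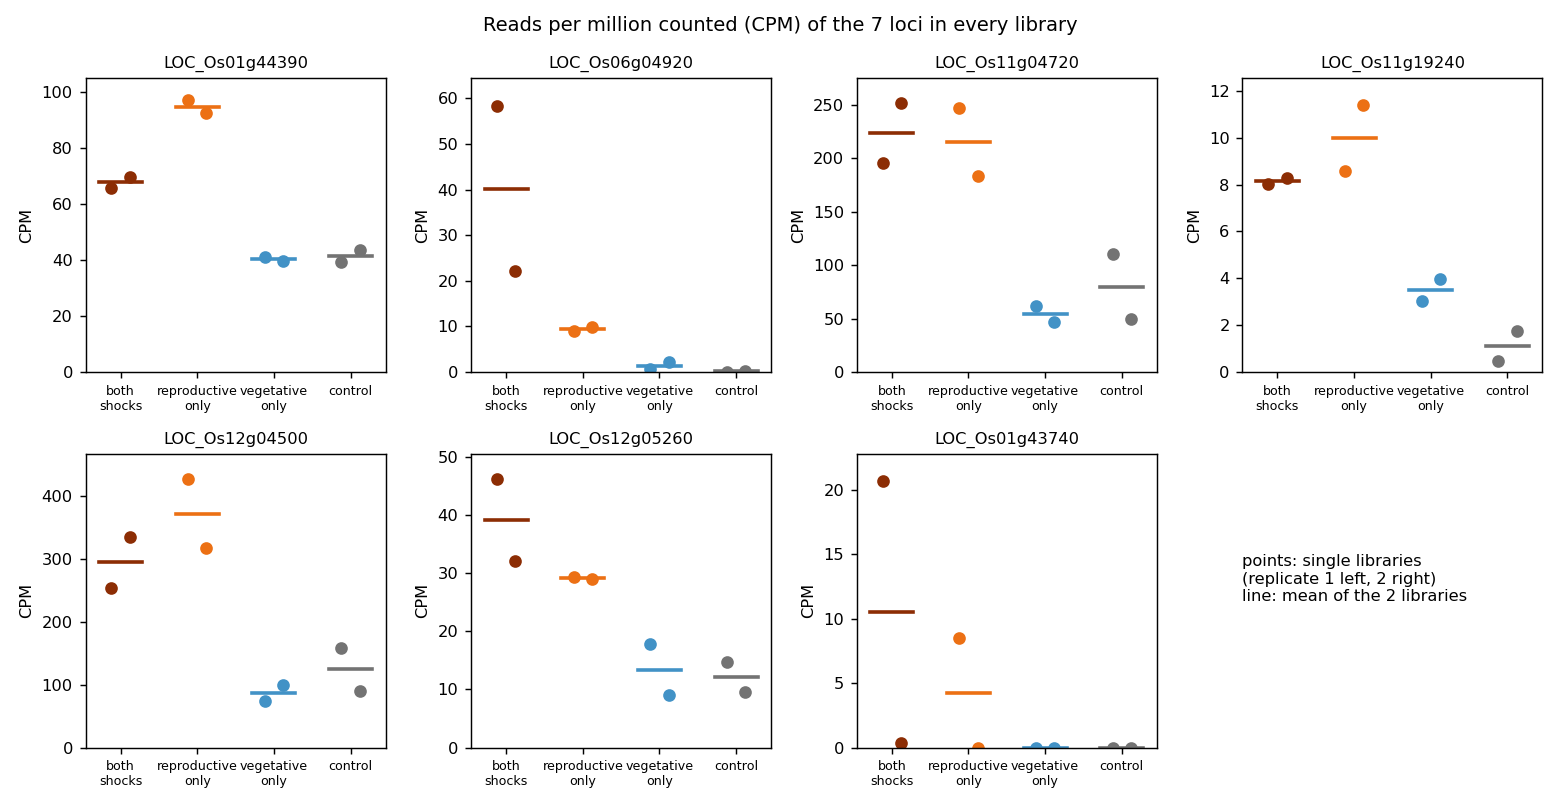
CPM of the 7 loci in each of the 8 libraries, on linear axes that start at 0, with points for single libraries and a line at the mean of the 2 libraries of a group. In 6 panels both late-shock groups stand above vegetative-shock and control plants, while LOC_Os01g43740 is at 20.6 CPM in 1 double-shock library and at 0.341 CPM in the other.

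LOC_Os06g04920, on chromosome 6, had the widest gap. It stood at 58.4 and 22.1 CPM in double-shock plants and at 8.92 and 9.77 CPM in reproductive-shock plants. The other libraries were at 0.664 and 2.20 CPM in vegetative-shock plants and at 0.0901 and 0.277 CPM in control plants. Its lowest late-shock library was thus 4.06 times its highest other library, and the 4 groups did not overlap. The share of all loci whose groups of differing history do not overlap was not counted, here or for the loci below. The control values rest on 1 and 3 reads, near the limit of what this depth resolves, and those of vegetative-shock plants on 7 and 25. In pooled reads the ratio was 26.9 in double-shock against vegetative-shock plants (95% exact binomial interval 18.9 to 39.5). It was 51.2 in reproductive-shock against control plants (19.7 to 189.8). Such intervals cover counting error only, not the spread between libraries, and the rule set in advance that these ratios lie above 1.

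LOC_Os11g19240, on chromosome 11, had few reads and late-shock ratios that lay far apart between plants with and without an earlier shock. It had 8.03 and 8.27 CPM in double-shock plants and 8.58 and 11.4 CPM in reproductive-shock plants. Vegetative-shock plants had 3.03 and 3.96 CPM, and control plants 0.450 and 1.75 CPM. The late-shock groups were close together, whereas both vegetative-shock libraries stood above both control libraries. Pooled reads therefore gave a ratio of 2.32 in double-shock against vegetative-shock plants (95% exact binomial interval 1.77 to 3.07) and of 9.10 in reproductive-shock against control plants (5.97 to 14.5). The rule set in advance that the late-shock side is the higher in both ratios, and the intervals cover counting error only. The control level rests on 5 and 19 reads.

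LOC_Os11g04720, on chromosome 11, and LOC_Os12g04500, on chromosome 12, varied together. LOC_Os11g04720 had 195.9 and 251.5 CPM in double-shock plants and 247.2 and 183.5 CPM in reproductive-shock plants. It had 61.3 and 46.7 CPM in vegetative-shock plants and 110.1 and 49.5 CPM in control plants. LOC_Os12g04500 had 254.3 and 335.4 CPM in double-shock plants and 426.9 and 317.8 CPM in reproductive-shock plants, against 74.5 and 99.5 CPM in vegetative-shock plants and 159.2 and 90.2 CPM in control plants. For both loci control replicate 1 was the highest of the libraries without a late shock, and it set how narrowly they met the rule (gaps of 1.67-fold and 1.60-fold). Over the 8 libraries their log2 CPM correlated at r = 0.962, the highest of the 15 pairs among the 6 loci. The rule favours a high r here for every pair, since it chose loci higher in the same libraries, and the lowest was 0.612. After the mean of the late-shock libraries and the mean of the others were removed, r was 0.740 for this pair. It ranged from -0.835 to 0.740 over the 15 pairs, of which 6 were positive. The pair was singled out after these values were seen, and the points share their libraries and depth.

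**Figure D2:**
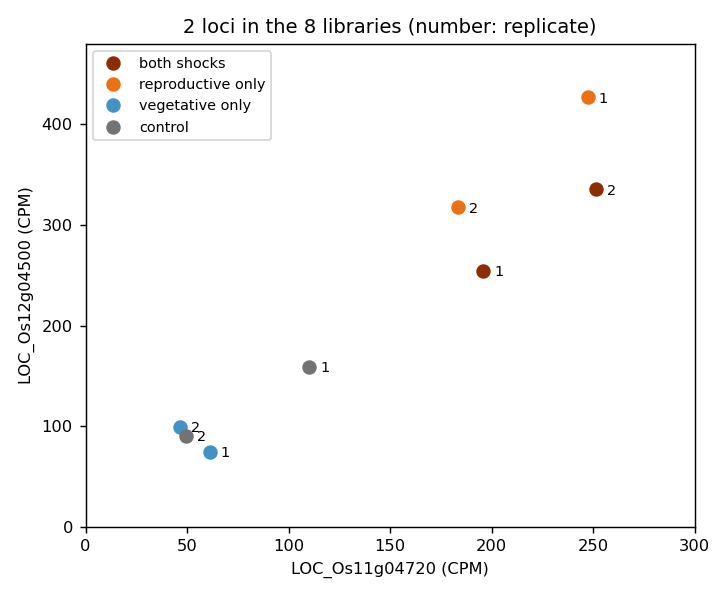
LOC_Os12g04500 against LOC_Os11g04720 in CPM, 1 point per library, coloured by group and numbered by replicate. The late-shock libraries lie between 183.5 and 251.5 CPM on the horizontal axis, and control replicate 1, at 110.1 CPM, lies between them and the other 3 libraries.

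In the identifier order, LOC_Os11g04720 is locus 364 of 4160 on chromosome 11 and LOC_Os12g04500 is locus 335 of 4014 on chromosome 12. As background, the tips of the short arms of rice chromosomes 11 and 12 carry a segment duplicated between them, so that near-identical copies occur there. Whether these loci are such copies was not tested. Their counts are uncertain in that case, because reads that match both copies may be left out in counting. The ratio of LOC_Os12g04500 to LOC_Os11g04720 reads was 1.30 and 1.33 in double-shock plants and 1.73 and 1.73 in reproductive-shock plants. It was 1.21 and 2.13 in vegetative-shock plants and 1.45 and 1.82 in control plants, so both double-shock libraries lay below both reproductive-shock and both control libraries, while the vegetative-shock pair spanned the other groups. The share of other pairs of loci whose ratio falls in such an order was not counted.

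The size of the late-shock gap of this pair moved with the share of multiply aligned reads. Among the 3 libraries with the higher share, the late-shock mean of LOC_Os11g04720 was 189.7 CPM, against 110.1 CPM in control replicate 1, a ratio of 1.72. Among the 5 libraries with the lower share it was 249.3 CPM, against 52.5 CPM, a ratio of 4.75. LOC_Os12g04500 gave ratios of 1.80 and 4.33 in the same split. The higher-share class holds 1 library without a late shock, and the part of alignment in these values was not tested. The other loci gave like ratios in both classes for LOC_Os01g44390 (2.01 and 2.02) and LOC_Os12g05260 (2.56 and 2.53). For LOC_Os11g19240 they were 21.6 and 2.89, and for LOC_Os06g04920 378.4 and 14.8, where the single higher-share control library held 5 reads and 1 read.

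LOC_Os12g05260, also on chromosome 12, had 46.2 and 32.1 CPM in double-shock plants and 29.4 and 29.0 CPM in reproductive-shock plants. Vegetative-shock plants had 17.7 and 9.06 CPM and control plants 14.7 and 9.59 CPM. Replicates of the groups without a late shock lay far apart, 1.96-fold from the lowest to the highest of these 4 libraries, and the groups overlapped. Both double-shock libraries stood above both reproductive-shock libraries.

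LOC_Os01g44390, on chromosome 1, had the smallest gap. It stood at 65.7 and 69.7 CPM in double-shock plants and at 96.9 and 92.3 CPM in reproductive-shock plants. Vegetative-shock plants had 40.9 and 39.5 CPM and control plants 39.3 and 43.5 CPM. The groups without a late shock overlapped, and both double-shock libraries lay below both reproductive-shock libraries. This locus met the rule at 1.51-fold and no longer met it when the libraries were scaled by TMM factors (a trimmed-mean scaling of library sizes).

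Just inside the threshold were LOC_Os01g44390 and LOC_Os12g04500, and just outside it LOC_Os01g09620 (1.496-fold, with a late-shock mean of 37.3 CPM against 14.4 CPM) and LOC_Os04g52340 (1.46-fold, 7.14 CPM against 4.38 CPM). The late-shock libraries stood wholly above the others, by any margin, at 247 of 12319 loci (2.01%). With a margin of at least 25% there were 28 loci besides LOC_Os01g43740, and at 1.4-fold or more 11. A further 19 loci met the fold threshold at a late-shock mean of 1 to 5 CPM. A locus with no read in the other libraries meets that threshold whatever its late-shock values. At a late-shock mean of at least 1 CPM there were 7 such loci, LOC_Os01g43740 among them.

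**Figure D3:**
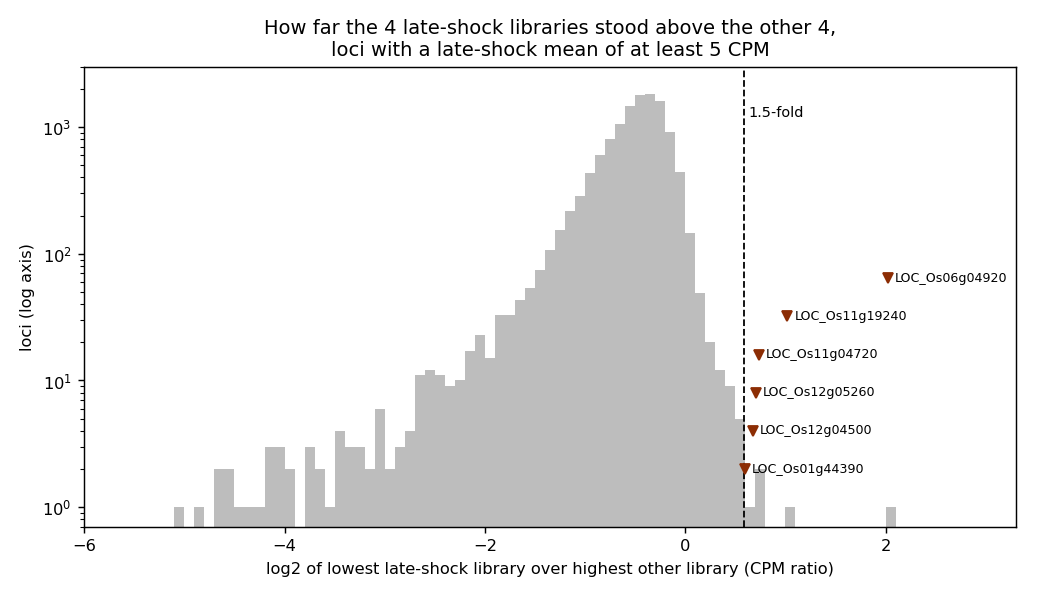
Histogram of the log2 ratio of the lowest late-shock library to the highest other library, for 12315 loci with a late-shock mean of at least 5 CPM, with loci counted on a log axis; 5 loci with a late-shock library at 0 or a ratio outside the axis are not drawn. Triangles mark the 6 loci, at heights chosen for legibility, from 1.51-fold for LOC_Os01g44390 to 4.06-fold for LOC_Os06g04920, beyond the dashed line at 1.5-fold.

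In the fit across all loci, edgeR's quasi-likelihood test with Benjamini-Hochberg adjustment called 82 of 18251 loci for the late shock averaged over history (0.449%). It called 112 loci in reproductive-shock against control plants (0.614%) and 13 in double-shock against vegetative-shock plants (0.0712%). The rule used these contrasts, so no calls of the 6 loci are given for them. The count of 112 was 1 without reproductive-shock replicate 1, 3 without replicate 2 and 14 without control replicate 2. The rule sets in advance that the fitted log2 fold changes of the 6 loci are high here. They had a median of 1.62 in reproductive-shock against control plants and 1.69 in double-shock against vegetative-shock plants. In pooled reads, LOC_Os11g04720 was 4.19 times as high in double-shock as in vegetative-shock plants (95% exact binomial interval 3.93 to 4.47). It was 2.69 times as high in reproductive-shock as in control plants (2.55 to 2.85). These intervals cover counting error only, not the spread between libraries, and the rule set in advance that such ratios lie above 1. LOC_Os12g04500 gave 3.40 and 2.98 in the same comparisons, and LOC_Os12g05260 gave 2.93 and 2.40. For these 3 loci the ratio was higher in plants with an earlier shock, and for the remaining 3 it was higher in plants without one, as with 1.69 and 2.29 for LOC_Os01g44390. These directions were not stable to 1 library at 4 loci. In the fit, the difference between histories turned to -0.0576 for LOC_Os11g04720, -0.25 for LOC_Os12g04500 and -0.0475 for LOC_Os12g05260 without control replicate 1. It also turned to -0.0164 for LOC_Os12g04500 without vegetative-shock replicate 1, and without vegetative-shock replicate 2 to -0.26 for LOC_Os12g05260 and 0.19 for LOC_Os06g04920. Dropping a late-shock library turned it as well. For LOC_Os12g04500 it was -0.0683 without double-shock replicate 2 and -0.0324 without reproductive-shock replicate 2. For LOC_Os12g05260 it was -0.12 without double-shock replicate 1.

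**Figure D4:**
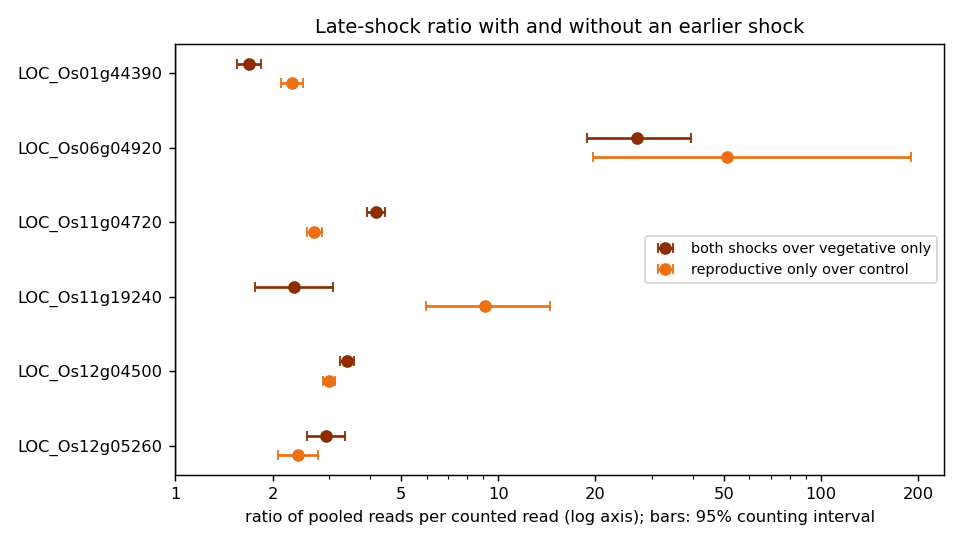
Ratio of pooled reads, each scaled by counted reads, in double-shock over vegetative-shock plants and in reproductive-shock over control plants, for the 6 loci on a log axis with 95% exact binomial intervals for counting error only. The rule set in advance that the late-shock side is the higher in each ratio. The history with the higher ratio differs between loci: 4.19 against 2.69 for LOC_Os11g04720, and 2.32 against 9.10 for LOC_Os11g19240.

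The rule used no contrast between histories, within the plants that met the late shock or within those that did not. It still favours loci whose values lie close together on each side, so these contrasts are not free of the selection. Differences between histories were tested for all 18251 loci in 1 fit, and none of the 6 loci passed an adjusted p of 0.05 in any of the 4 contrasts below. The design has 2 libraries a group, and a p that misses the threshold does not show that histories act alike.

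In vegetative-shock against control plants, which differ by the early shock without a late one, edgeR called 6 loci (0.0329%), and 0 of the 6 loci of the set. No sampling day is given, so a lasting effect of the early shock and a direct response to it cannot be told apart. Over all loci 1405 had an unadjusted p below 0.05, and DESeq2 called 128 loci, 0 of them in the set. The median log2 fold change was 0.06 over the set, with a range of -0.26 to 0.33 when 1 library was left out, and 0.004 over all loci tested. LOC_Os06g04920 had a log2 fold change of 2.90 (SE 1.11, edgeR adjusted p = 0.59) and LOC_Os11g19240 one of 1.64 (SE 0.50, edgeR adjusted p = 0.43). For both, each vegetative-shock library was above each control library, but the share of all loci in that order was not counted. LOC_Os06g04920 ranged from 1.86 without vegetative-shock replicate 2 to 3.91 without control replicate 2. Without control replicate 1, LOC_Os11g19240 gave 0.91, and without control replicate 2 it gave 3.0. LOC_Os11g04720 stood at -0.53 (SE 0.31, edgeR adjusted p = 0.77) and LOC_Os12g04500 at -0.51 (SE 0.24, edgeR adjusted p = 0.67). Without control replicate 1 these were 0.06 and -0.14. LOC_Os01g44390 gave -0.05, with a 95% interval of -0.35 to 0.26, the narrowest of the set.

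In double-shock against reproductive-shock plants, which asks whether the earlier shock alters the state after the later one, edgeR called 0 loci (0%). An unadjusted p below 0.05 was reached by 1469 loci, and DESeq2 called 63, 0 of them in the set. The median log2 fold change was -0.18 over the set and 0.01 over all loci. LOC_Os06g04920 averaged 40.2 ± 25.7 CPM with both shocks and 9.35 ± 0.599 CPM with the late shock alone (SD, n = 2), a log2 fold change of 2.05 (SE 0.46, edgeR adjusted p = 0.35). That value was 1.15 without double-shock replicate 1. LOC_Os01g44390 averaged 67.7 ± 2.77 CPM with both shocks and 94.6 ± 3.20 CPM with the late shock alone (SD, n = 2), a log2 fold change of -0.54 (SE 0.13, edgeR adjusted p = 0.39). It stayed between -0.57 and -0.52 when any 1 library was left out. LOC_Os11g04720 differed least, at -0.0008 with a 95% interval of -0.69 to 0.69, which still allows changes in either direction. The other 3 loci had values of -0.39 to 0.37 with intervals that include 0.

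**Figure D5:**
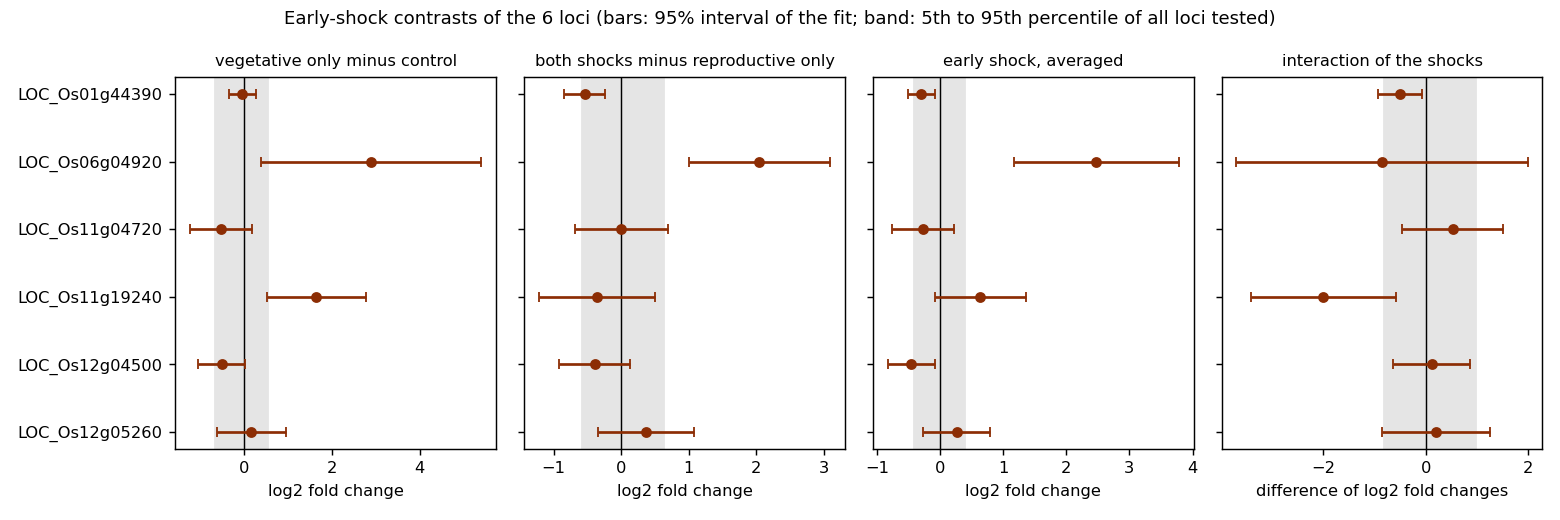
Fitted log2 differences of the 6 loci in the 4 contrasts that the rule did not use, with bars for the 95% interval of the fit and a band from the 5th to the 95th percentile of all loci tested. LOC_Os06g04920 lies right of the band in the first 3 panels (2.90, 2.05, 2.47) and left of it in the interaction (-0.85), LOC_Os11g19240 right of it for vegetative-shock against control plants and the early shock averaged (1.64, 0.64) and left in the interaction (-2.00), and LOC_Os12g04500 left of it for the early shock averaged (-0.45); none of these passed the adjusted threshold.

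Averaged over plants with and without the late shock, the early shock gave no call (0%), with 1054 loci at an unadjusted p below 0.05 and 14 called by DESeq2, 0 of them in the set. LOC_Os06g04920 had a log2 fold change of 2.47 (SE 0.58, edgeR adjusted p = 0.77) and was higher in both early-shock groups than in their counterparts. LOC_Os12g04500 had -0.45 (SE 0.17, edgeR adjusted p = 0.85) and LOC_Os01g44390 -0.30 (SE 0.09, edgeR adjusted p = 0.83). The set had a median of -0.001, with a range of -0.20 to 0.17 when 1 library was left out, against 0.003 over all loci.

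The interaction asks whether the late-shock difference itself depends on history, being the log2 fold change of double-shock against vegetative-shock plants minus that of reproductive-shock against control plants. edgeR called 18 loci (0.0986%), and 0 of the set. The set had a median of -0.19, against 0.01 over all loci, but 0.12 where the members were chosen on TMM-scaled CPM. LOC_Os11g19240 had the value farthest from 0, at -2.00 (SE 0.63, edgeR adjusted p = 0.37), made of a late-shock change of 1.26 with an earlier shock and of 3.26 without one. Dropping control replicate 2 made it -3.36, and dropping control replicate 1 made it -1.27. LOC_Os01g44390 was at -0.49 (SE 0.19, edgeR adjusted p = 0.44), from 0.79 with an earlier shock and 1.28 without. LOC_Os06g04920 gave -0.85 with a 95% interval of -3.70 to 2.00, with 1 and 3 control reads behind it. The intervals of the other 3 loci included 0, from -0.46 to 1.52 for LOC_Os11g04720, from -0.63 to 0.87 for LOC_Os12g04500 and from -0.85 to 1.26 for LOC_Os12g05260.

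The 7 loci lay on 4 chromosomes, and no pair of them was within 3 steps of each other in the identifier order. Of their 42 neighbours within 3 steps, 16 averaged at least 1 CPM over the 8 libraries. Late-shock over other means of these neighbours were 0.820 to 1.79, with a median of 1.04, and the late-shock libraries stood wholly above the others at 1 of them, LOC_Os01g44430, 2 steps from LOC_Os01g44390. That neighbour averaged 11.3 CPM in late-shock libraries against 8.36 CPM in the others. Over 12319 loci with a late-shock mean of at least 5 CPM, the late-shock libraries stood wholly above the others at 2.01%. A ratio of 1.5 or more was reached by 2 neighbours, LOC_Os06g04889 (1.79) and LOC_Os11g04710 (1.70), and in both the late-shock libraries overlapped the others. Their late-shock means were low, at 5.52 and 2.10 CPM, and the share of all loci at such a ratio was not counted.

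Outside the set, the profiles most like the mean profile of the 6 loci, by Pearson r of log2 CPM over the 8 libraries among 12425 loci, were those of LOC_Os04g52340 (r = 0.975) and LOC_Os03g58040 (r = 0.961). LOC_Os04g52340 had 6.69 and 7.33 CPM in double-shock plants and 7.19 and 7.35 CPM in reproductive-shock plants, against 4.36 and 4.05 CPM in vegetative-shock plants and 4.59 and 4.52 CPM in control plants. LOC_Os03g58040 had 16.1 and 14.9 CPM in double-shock plants and 13.3 and 14.5 CPM in reproductive-shock plants, against 9.76 and 9.06 CPM in vegetative-shock plants and 8.20 and 9.13 CPM in control plants. Both kept the late-shock libraries apart from the others, by 1.46-fold and 1.37-fold, and fell short of the threshold. The mean profile came from loci that the rule chose, so a ranking by likeness to it favours such a gap in advance.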

How the data were processed

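Leaf RNA of 8 libraries, 2 in each of 4 groups taken from the sample titles, was sequenced from TruSeq libraries, per the labels' protocols. The authors deposited raw read counts per locus, 1 table per library, with no normalisation. Per the submitters' processing notes, the tools included HTSeq 0.11.1, STAR 2.7, FastQC 0.11.7, Trimmomatic and edgeR 3.8; build, annotation, strand and settings are not given in the sources used. The 5 HTSeq summary lines, 14.97% to 19.2% of the reads listed, were left out.

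CPM for the rule used total counts. Loci passing filterByExpr (18251, among them all 7 members) were fitted with edgeR 4.0.16 in R 4.3.3: 1 mean per group over all 8 libraries, TMM factors, two-sided quasi-likelihood F tests, Benjamini-Hochberg adjustment over all loci tested and calls at an adjusted p below 0.05. There were 4 residual and 4.77 prior degrees of freedom. Standard errors are the log2 fold change over the root of F, and 95% intervals use a t quantile with the summed degrees of freedom. Correlations used log2(CPM + 0.5). On simulated counts, the fit was checked for sign and median size of known changes in vegetative-shock against control plants and the interaction. The check set no requirement on the number of calls. Alternatives were RLE factors, 3 other low-count filters, DESeq2 1.42.0, robust quasi-likelihood, a replicate block, a term for multiply aligned reads, and leaving out each library.

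The members, and the lists and tests used, were chosen with earlier results of these data known. All 7 members are named, as are non-members by fixed ranks: those next to the threshold, those of most similar profile, and 3 neighbours chosen after their values were seen. Gene classes and leaf markers set out for annotated loci could not be used. Same-numbered libraries deviated from their group means with correlations of -0.152 to 0.258 between groups, so the numbers were not taken as pairing libraries.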

Additional observations from a re-analysis of the deposited data

How the results depend on the processing

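The rule gave 8 loci with TMM factors and 9 with RLE factors, 29 at a margin of 25% (with LOC_Os01g43740) and 3 at 2-fold, 26 at a mean of 1 CPM and 5 at 10 CPM, and 7 to 14 when it was applied without 1 library. Of the 26 loci at a mean of 1 CPM, 7 had no read in the other libraries, which meets the fold threshold whatever the late-shock values. Requiring a read in every late-shock library, an alternative added after seeing the data, gave 6. Of the 24 fitted values of the 6 loci in the 4 contrasts the rule did not use, 7 passed the adjusted threshold in the fit with no low-count filter and none in any other alternative run, where the smallest adjusted p was 0.062 (LOC_Os06g04920 in double-shock against reproductive-shock plants, where double-shock replicate 2 was dropped) and the smallest from DESeq2 0.099. Without that filter the prior degrees of freedom were infinite, so that all loci were given the fitted trend of the spread in place of their own, and calls reached 499 (vegetative-shock against control), 501 (double-shock against reproductive-shock), 301 (early shock averaged) and 646 (interaction). A filter of 10 reads over all libraries, added after seeing the data, gave 15 calls in the first of these. DESeq2 gave 128, 63, 14 and 175 calls in these contrasts, and 431 for reproductive-shock against control, 102 for double-shock against vegetative-shock and 312 for the late shock averaged. Robust quasi-likelihood gave 14, 2 and 53 calls in vegetative-shock against control, double-shock against reproductive-shock and the interaction, and the term for multiply aligned reads, also added later, gave 28 in the interaction. The replicate block gave 11 calls for vegetative-shock against control; it changed no call of the 6 loci in the 4 contrasts. Leaving out 1 library gave 0 to 52, 0 to 17, 0 to 0 and 0 to 55 calls in the 4 contrasts (52 and 55 where control replicate 1 was dropped, 17 where double-shock replicate 2 was, and 0 in the first and the last where either reproductive-shock library was), and 1 to 143, 0 to 28 and 14 to 89 in the 3 late-shock contrasts. Choosing members on TMM-scaled CPM gave set medians of 0.16, -0.0008, 0.26 and 0.12 in the 4 contrasts, and leaving out 1 library -0.26 to 0.33, -0.26 to -0.03, -0.20 to 0.17 and -0.30 to -0.04. The calls in vegetative-shock against control depended on each vegetative-shock library as well as on each reproductive-shock library. Causes of these differences were not tested.

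Of 384 alternative values of the 6 loci 21 had the opposite sign, none of them called. The 95% interval of each of those results in the reported fit included 0. LOC_Os11g04720 in double-shock against reproductive-shock plants was 0.000225 with a filter of 1 CPM in 2 libraries and 0.0400 with the replicate block, and LOC_Os12g05260 in the interaction was -0.0269 with the term for multiply aligned reads. The rest arose without 1 library. In vegetative-shock against control, LOC_Os01g44390 ranged from -0.19 to 0.11, LOC_Os11g04720 from -0.94 to 0.0567 and LOC_Os12g05260 from -0.48 to 0.62. In double-shock against reproductive-shock plants LOC_Os11g04720 ranged from -0.17 to 0.16. For the early shock averaged, LOC_Os11g04720 ranged from -0.47 to 0.0279 and LOC_Os12g05260 from -0.0582 to 0.49. In the interaction LOC_Os06g04920 ranged from -1.86 to 0.19, LOC_Os11g04720 from -0.0576 to 0.94, LOC_Os12g04500 from -0.25 to 0.41 and LOC_Os12g05260 from -0.26 to 0.85.

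Depth limits LOC_Os06g04920 and LOC_Os11g19240 most, since their control levels rest on 1 to 19 reads a library.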
